A study of Mus musculus with 4 samples.

Results

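The genes described are 9 through which astrocytes take up glutamate and GABA, recycle glutamate, buffer potassium, couple to one another, pass water and run glycolysis. They were chosen by name from a list of symbols, and all 9 were found among the 31055 genes that were counted. They are Slc1a2 and Slc1a3 (glutamate transporters), Slc6a11 (a GABA transporter), Glul (glutamine synthetase), Kcnj10 (a potassium channel), Gja1 and Gjb6 (connexins), Aqp4 (a water channel) and Aldoc (an aldolase). Single-cell RNA sequencing had been done on the dissociated hippocampus of male mice aged 3 months on a C57BL/6J background, with 1 library from each mouse. The groups were WT littermates (n = 2) and Dp(10)2Yey mice (n = 2), which carry an extra copy of the stretch of mouse chromosome 10 from Prmt2 to Pdxk. That stretch is orthologous to part of the human chromosome that is trisomic in Down syndrome, and it is 1 of several such stretches in the mouse, so the line models only some of the genes involved. Each library is a set of unique molecular identifier (UMI) counts, in which every captured RNA molecule is counted once at its 3′ end, so a level needs no correction for the length of a gene. WT replicates 1 and 2 held 3002546 and 6848466 UMIs in 1039 and 1708 barcodes, and Dp(10)2Yey replicates 1 and 2 held 5112759 and 9612011 UMIs in 1372 and 2345 barcodes. WT replicate 1 was the shallowest library, with a median of 2117 UMIs in the cells analysed against 3690, 3385 and 3671 in WT replicate 2 and Dp(10)2Yey replicates 1 and 2.

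Astrocytes wrap synapses and blood vessels. They remove glutamate from the synaptic cleft, convert it to glutamine with glutamine synthetase and return the glutamine to neurons, and they take up the potassium that active neurons release. Gap junctions of connexins let potassium and metabolites spread from one astrocyte to the next, and the water channel sits mainly in the endfeet on vessels. Ependymal cells line the ventricles and share a developmental origin with astrocytes, while oligodendrocyte precursor cells contact synapses and give rise to myelinating oligodendrocytes.

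The cells were sorted into classes without the 9 genes, which were taken out of the genes used for clustering and of the markers used for naming. Of 6235 cells, 887 formed an astrocyte class, made up of 145 (WT replicate 1), 203 (WT replicate 2), 198 (Dp(10)2Yey replicate 1) and 341 cells (Dp(10)2Yey replicate 2). It was led by Ntsr2, Cldn10 and Mfge8, and 9 of its 10 leading genes were on the list of astrocyte markers, so its name does not rest on the genes described. The ependymal class had 125 cells, of which 59 came from WT replicate 1, and its leading genes included the cilium genes Tmem212 and Ccdc153. The oligodendrocyte precursor class had 461 cells, the oligodendrocytes 970, the microglia 2009 and the neurons 432. Depth differed between classes, with a median of 1609 UMIs per astrocyte, 2398 per ependymal cell, 4459 per oligodendrocyte precursor cell and 4095 per microglial cell. Any pair of libraries shared from 0 to 3 cell barcodes. The neurons were set apart by a median of 27.8% mitochondrial UMIs, against 11.2% in astrocytes. Levels are given as CPM, the UMIs of a gene in all cells of a class and library after the UMIs of those cells are scaled to a common total, and their error is the SD over the 4 libraries. Since the genes are known for their place in astrocytes, levels across classes are a description and carry no test.

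Together the 9 genes made up 25861 and 27364 CPM of the astrocyte RNA in WT replicates 1 and 2 and 28373 and 28228 CPM in Dp(10)2Yey replicates 1 and 2, a mean of 27456 ± 1153 CPM (SD, n = 4). As CPM both Dp(10)2Yey libraries were above both WT libraries, but with TMM normalization, which scales libraries by the bulk of their genes, the groups overlapped, at 27353 and 29214 in WT and 30297 and 28607 in Dp(10)2Yey. Neurons came next at 3443 ± 1550 CPM (SD, n = 4), then ependymal cells at 2379 ± 163 CPM, oligodendrocytes at 1756 ± 398 CPM, endothelial cells at 1510 ± 151 CPM, microglia at 1182 ± 165 CPM and oligodendrocyte precursor cells at 1178 ± 109 CPM. Below these lay an unnamed cluster led by Igfbpl1 and Sox11 (839.7 ± 199.9 CPM), microglia of low RNA content (560.2 ± 123 CPM), border macrophages (514 ± 256 CPM) and choroid plexus cells (372 ± 109 CPM). In that order neurons and ependymal cells lay within the spread of the neurons, as did oligodendrocytes and endothelial cells within that of the oligodendrocytes, and microglia and oligodendrocyte precursor cells did not differ beyond their spread. Microglia of low RNA content, border macrophages and choroid plexus cells lay within the spread of the border macrophages. Within a library, the summed level was 11.6-fold higher in astrocytes than in ependymal cells (geometric mean, range 10.6 to 13.3), 23.4-fold higher than in oligodendrocyte precursor cells (21.0 to 26.6) and 23.4-fold higher than in microglia (20.1 to 26.2). Of the 88802 UMIs of the 9 genes, 64.5% were in astrocytes, which were 14.2% of the cells, and 11.1% were in microglia, 10.2% in oligodendrocytes, 5.37% in neurons, 2.13% in ependymal cells and 2.70% in oligodendrocyte precursor cells.

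**Figure D1:**
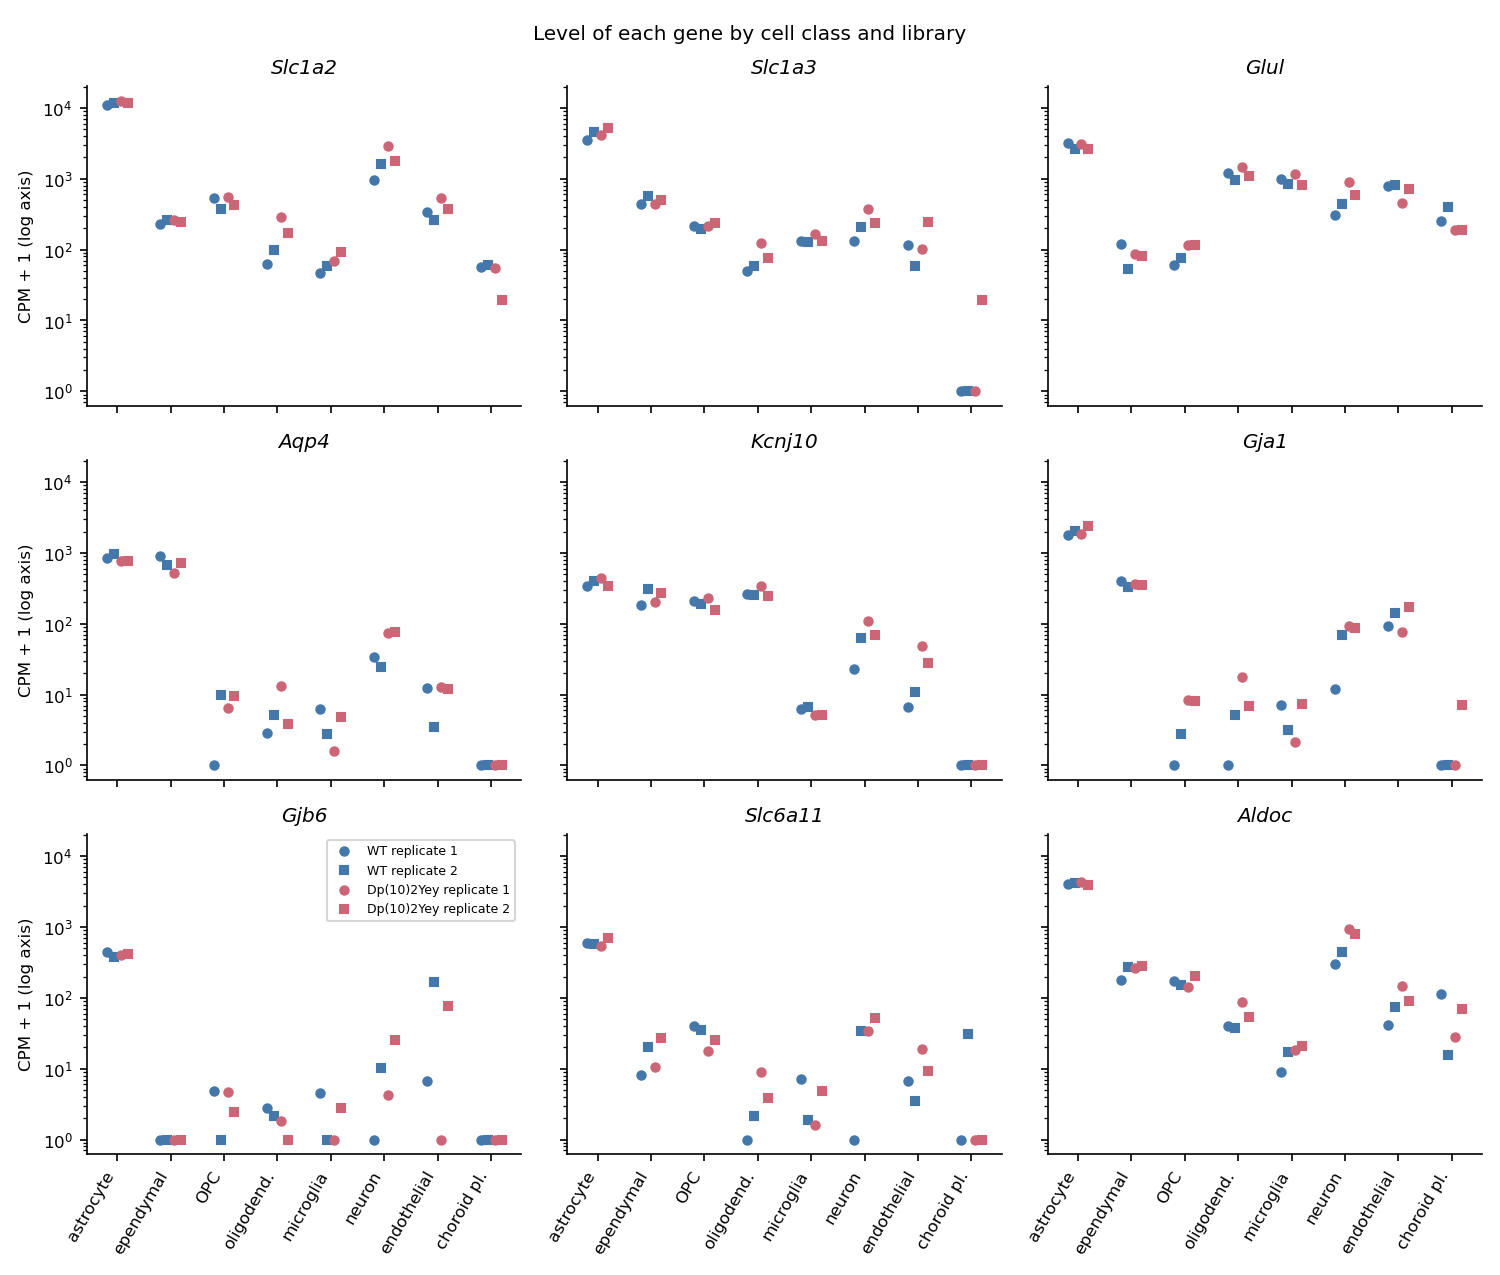
Level of each of the 9 genes (CPM + 1, log axis) in 8 cell classes (OPC, oligodendrocyte precursor cells), with 1 point per library and WT and Dp(10)2Yey in separate colors. Each gene had its highest mean level in astrocytes, while Aqp4 in ependymal cells (699 CPM) and Kcnj10 in oligodendrocytes (277 CPM) and ependymal cells (241 CPM) came near the astrocyte means of 841 and 383 CPM.

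The glutamate transporter Slc1a2, which carries out most glutamate uptake in the adult forebrain, was the most abundant of the 9 genes. In astrocytes it had 11155 and 11573 CPM in WT replicates 1 and 2 and 12722 and 11806 CPM in Dp(10)2Yey replicates 1 and 2. As CPM the Dp(10)2Yey libraries were the higher ones, but with TMM normalization the groups overlapped, at 11798 and 12356 in WT and 13584 and 11965 in Dp(10)2Yey. Neurons had the next level, 1807 ± 817 CPM (SD, n = 4), ranging from 951 CPM in WT replicate 1 to 2912 CPM in Dp(10)2Yey replicate 1. Oligodendrocyte precursor cells had 468 ± 85.7 CPM, endothelial cells 377 ± 116 CPM, the cluster led by Igfbpl1 342 ± 109 CPM, ependymal cells 247 ± 16.1 CPM, oligodendrocytes 155 ± 101 CPM and microglia 66.4 ± 19.9 CPM. The order from oligodendrocyte precursor cells to the cluster led by Igfbpl1 was within their spread, as was that of ependymal cells and oligodendrocytes. Astrocytes were thus 47.8-fold above ependymal cells (range over libraries 44.6 to 49.1), 25.6-fold above oligodendrocyte precursor cells (20.8 to 31.2) and 184-fold above microglia (127 to 242). For Slc1a2 the ependymal cells lay lower than the precursor cells in each of the 4 libraries.

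Slc1a3, the transporter that dominates in radial glia and in the cerebellum, had a different order of classes. Its astrocyte level was 3535 and 4648 CPM in WT replicates 1 and 2 and 4213 and 5166 CPM in Dp(10)2Yey replicates 1 and 2, a mean of 4390.4 ± 691 CPM (SD, n = 4). The groups overlapped, with WT replicate 1 lowest and Dp(10)2Yey replicate 2 highest. Ependymal cells came next, with 433 and 565 CPM in WT and 435 and 497 CPM in Dp(10)2Yey, ahead of the cluster led by Igfbpl1 at 304 ± 103 CPM, neurons at 237 ± 99.8 CPM and oligodendrocyte precursor cells at 214 ± 17.1 CPM, which differed by less than the spread of the former. Microglia had 138 ± 18.2 CPM, more than their 66.4 CPM of Slc1a2, although astrocytes held Slc1a2 at the higher level. Astrocytes were 9.07-fold above ependymal cells (8.16 to 10.4), 20.3-fold above oligodendrocyte precursor cells (16.4 to 23.9) and 31.6-fold above microglia (25.4 to 39.4).

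Slc6a11 takes up GABA, mostly into astrocyte processes away from the synapse. It had 603 and 578 CPM in astrocytes of WT replicates 1 and 2 and 541 and 689 CPM in those of Dp(10)2Yey replicates 1 and 2. The Dp(10)2Yey libraries lay on either side of the WT libraries. Neurons (29.2 ± 21.3 CPM) and oligodendrocyte precursor cells (28.6 ± 10.1 CPM) came next and did not differ beyond their spread, and ependymal cells had 15.6 ± 8.83 CPM, from 15 UMIs in all. Microglia had 2.87 ± 2.66 CPM and oligodendrocytes 3.04 ± 3.56 CPM. The gene was 43.9-fold higher in astrocytes than in ependymal cells (26.3 to 84.9) and 22.1-fold higher than in oligodendrocyte precursor cells (15.4 to 32.7), and 87.6% ± 1.54 (SD, n = 4) of its UMIs in a library were in astrocytes.

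Glul, the enzyme that turns glutamate and ammonia into glutamine, had, with Kcnj10, the smallest share of its UMIs in astrocytes. Astrocytes held it at 3154 and 2623 CPM in WT replicates 1 and 2 and at 3137 and 2673 CPM in Dp(10)2Yey replicates 1 and 2. In each genotype replicate 1 was the higher library, and the groups overlapped. Oligodendrocytes had 1178 ± 205 CPM (SD, n = 4), microglia 946 ± 157 CPM, endothelial cells 695 ± 163 CPM and neurons 555 ± 249.9 CPM, of which endothelial cells and neurons did not differ beyond their spread. Oligodendrocyte precursor cells (91.4 ± 28.8 CPM) and ependymal cells (85.2 ± 28.2 CPM) were lower than these. Astrocytes were 2.48-fold above oligodendrocytes (2.16 to 2.69) and 3.08-fold above microglia (2.72 to 3.28), but 32.9-fold above oligodendrocyte precursor cells (23.2 to 53.8) and 35.4-fold above ependymal cells (26.1 to 50.5). In the average library, 26.6% ± 2.61 (SD, n = 4) of the Glul UMIs were in astrocytes. The gene thus separated oligodendrocytes from their precursors by more than it separated oligodendrocytes from astrocytes.

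Kcnj10 encodes an inwardly rectifying potassium channel that sets the resting potential of astrocytes and clears extracellular potassium. In astrocytes it had 344 and 405 CPM in WT replicates 1 and 2 and 440.2 and 342 CPM in Dp(10)2Yey replicates 1 and 2. The WT libraries lay between the Dp(10)2Yey libraries. Oligodendrocytes had 258 and 256 CPM in WT and 345 and 249 CPM in Dp(10)2Yey, so that the highest oligodendrocyte library reached the level of the lowest astrocyte library. Ependymal cells followed at 241 ± 56.9 CPM (SD, n = 4) and oligodendrocyte precursor cells at 197 ± 31.9 CPM, both within the spread of their neighbours in the order. Within each library astrocytes were nevertheless highest, by 1.39-fold over oligodendrocytes (1.28 to 1.58), 1.61-fold over ependymal cells (1.26 to 2.17) and 1.95-fold over oligodendrocyte precursor cells (1.66 to 2.17). Neurons had 65.0 ± 35.7 CPM, endothelial cells 22.5 ± 18.9 CPM and microglia 4.80 ± 0.807 CPM, so Kcnj10 was a gene of all the glial classes of neural origin rather than of astrocytes alone.

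The connexins Gja1 and Gjb6 form the gap junctions between astrocytes, and they differed from each other outside the astrocytes. Gja1 had 1759 and 2035 CPM in astrocytes of WT replicates 1 and 2 and 1866 and 2386 CPM in those of Dp(10)2Yey replicates 1 and 2. Gjb6 had 443 and 377 CPM in WT replicates 1 and 2 and 397 and 422 CPM in Dp(10)2Yey replicates 1 and 2. For both genes the groups overlapped. Ependymal cells carried Gja1 at 361 ± 30.2 CPM (SD, n = 4), a level 5.55-fold below that of astrocytes (4.42 to 6.71), but none of their 780665 UMIs was from Gjb6. By a floor of 3 counts over the class, Gjb6 was at least 106-fold lower in ependymal cells than in astrocytes, and a count of 0 of 125 cells allows up to 2.40% of ependymal cells with a UMI. Oligodendrocyte precursor cells had 10 UMIs of Gja1 and 4 of Gjb6, which puts astrocytes 430.4-fold and 209-fold higher when the libraries are pooled.

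Endothelial cells had 121 ± 45.1 CPM of Gja1 (SD, n = 4) and the second highest level of Gjb6, at 5.68 and 165 CPM in WT replicates 1 and 2 and 0 and 76.0 CPM in Dp(10)2Yey replicates 1 and 2. The spread of Gjb6 was as large as its mean, and neither genotype was uniformly higher. In WT replicate 2, 32 of the 66 Gjb6 UMIs were in 1 cell, and without this cell the level was 97.2 CPM of Gjb6 and 94.3 CPM of Gja1, the latter down from 142 CPM. At a finer clustering, 23 cells of the endothelial class led by Mgp, Prg4 and Nov separated from the rest, and they held 73 of the 95 Gjb6 UMIs of the class. Mgp, Nov and Slc47a1, all among their leading genes, were on the list of fibroblast markers. The name of the class may therefore not hold for these 23 cells. These cells had 543 CPM of Gjb6, above the astrocyte mean of 409 CPM, and 528 CPM of Gja1, while Slc1a2 was at 37.2 CPM, and Slc1a3, Aqp4, Kcnj10 and Slc6a11 had 0 UMIs in them. Without the cell with 32 Gjb6 UMIs, which was 1 of the 23, they had 488 CPM of Gjb6 and 559.7 CPM of Gja1. The numbers of these cells were 3 and 11 in WT replicates 1 and 2 and 0 and 9 in Dp(10)2Yey replicates 1 and 2, in the same order as the Gjb6 levels. The other 264 cells of the class, led by the endothelial markers Cldn5 and Ly6c1, had 22.5 CPM of Gjb6 and 80.6 CPM of Gja1. This group of cells was singled out after its values were seen.

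Aqp4, the water channel of astrocyte endfeet, was the gene that astrocytes and ependymal cells shared most evenly. Astrocytes had 857 and 963 CPM in WT replicates 1 and 2 and 769.9 and 774 CPM in Dp(10)2Yey replicates 1 and 2, so the WT libraries were the higher ones without overlap. Ependymal cells had 895 and 668 CPM in WT replicates 1 and 2 and 512 and 719.5 CPM in Dp(10)2Yey replicates 1 and 2. WT replicate 1, the library with the most ependymal cells, was the 1 library in which ependymal cells had the higher level, and this order rested on 1 ependymal cell with 33 of the 126 UMIs, without which the level was 836 CPM. The mean log2 ratio of astrocytes over ependymal cells was 0.29 ± 0.32 (SD, n = 4), a difference within its spread. All other classes with at least 10 cells in each library were far lower, with 51.1 ± 26.8 CPM in neurons, 9.13 ± 4.44 CPM in endothelial cells, 5.79 ± 4.17 CPM in oligodendrocyte precursor cells and 2.87 ± 2.12 CPM in microglia, and with 0 UMIs in choroid plexus cells and border macrophages. The astrocyte share of Aqp4 UMIs was lower in the libraries with 59 and 34 ependymal cells than in those with 15 and 17, going from 59.7% (WT replicate 1) and 61.1% (Dp(10)2Yey replicate 2) to 77.9% (WT replicate 2) and 80.1% (Dp(10)2Yey replicate 1). In Dp(10)2Yey replicate 2, 72 of the 1046 Aqp4 UMIs were in 1 cell of a small unnamed cluster, and without this cell the astrocyte share was 65.6%.

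Aldoc is the aldolase of astrocyte glycolysis and had, in astrocytes, the smallest SD of the 9 genes relative to its mean. Astrocytes had 4011 and 4162 CPM in WT replicates 1 and 2 and 4288 and 3969 CPM in Dp(10)2Yey replicates 1 and 2. Here the WT libraries lay between the Dp(10)2Yey libraries. The gene was at 625 ± 305 CPM in neurons (SD, n = 4), 248 ± 47.5 CPM in ependymal cells, 166 ± 27.0 CPM in oligodendrocyte precursor cells and 15.4 ± 5.12 CPM in microglia. The fold of astrocytes was 16.8 over ependymal cells (14.2 to 22.6), 24.9 over oligodendrocyte precursor cells (19.7 to 30.3), 81.5 over oligodendrocytes (50.1 to 114) and 282 over microglia (201 to 502). In ependymal cells of WT replicate 2, 1 cell held 23 of the 42 Aldoc UMIs, and without it the level was 163 CPM in place of 273 CPM.

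**Figure D2:**
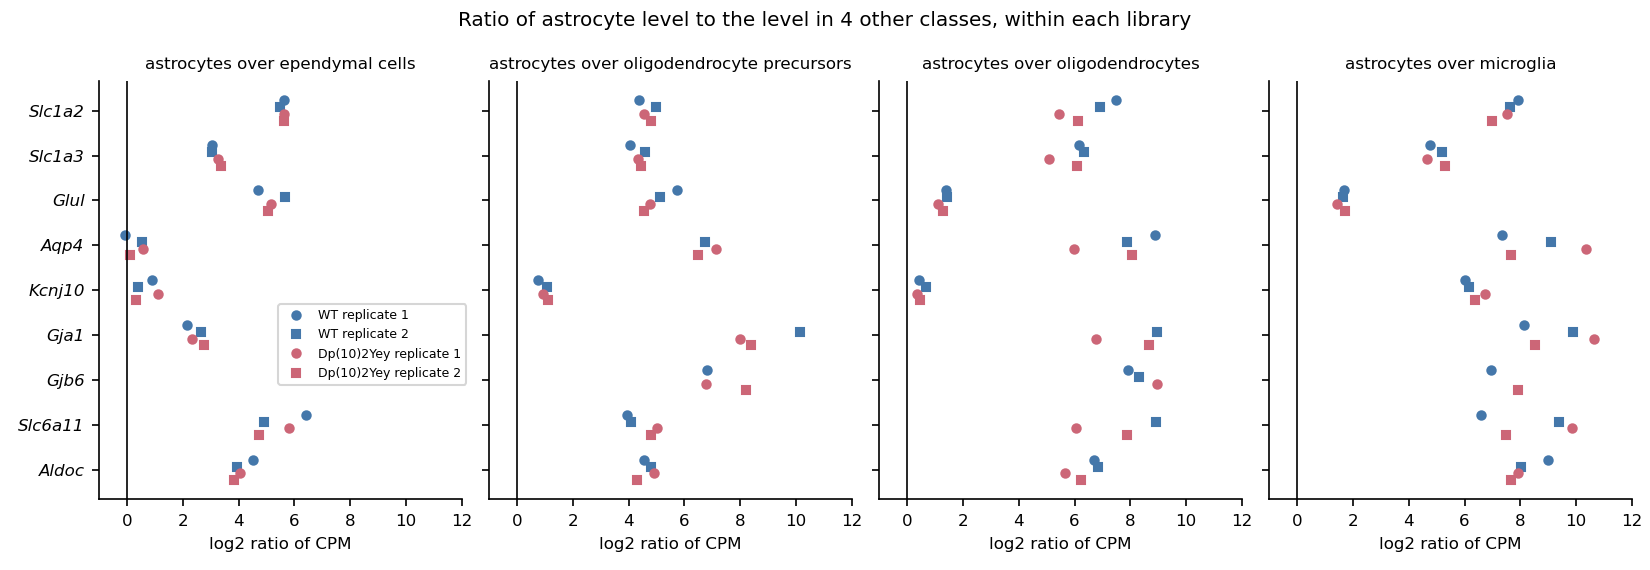
Log2 ratio of the astrocyte level to the level of another class within each library, for each gene, with 1 point per library, 1 panel per class and no point where the other class had 0 UMIs. The ratios nearest to 1 (0 on the axis) were those of Aqp4 over ependymal cells (geometric mean 1.22) and of Kcnj10 over oligodendrocytes (1.39), ependymal cells (1.61) and oligodendrocyte precursor cells (1.95), while Slc1a2 was 47.8-fold higher in astrocytes than in ependymal cells and 25.6-fold higher than in oligodendrocyte precursor cells.

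Promoters of the genes are shown because the 9 differ in how far they are confined to astrocytes, from Glul and Kcnj10, with the smallest shares of UMIs in astrocytes, to Gjb6 (87.9% ± 11.7, SD, n = 4), Slc6a11 (87.6% ± 1.54) and Gja1 (86.3% ± 2.22), whose high shares did not differ beyond their spread. Of the latter, Gjb6 is shown because it was at 0 UMIs in ependymal cells, although its share was 71.5% in WT replicate 2. Without 1 cell of the endothelial class, which held 32 of its 256 UMIs there, the share was 81.7%. RefSeq gives windows of 300 bases (250 before and 50 after the start, GRCm38.p6) for 8 of the 9 genes, and 9 windows in all, since Aldoc has 2. They were searched on both strands for TTGGC, the half-site of nuclear factor I, a family of factors active in astrocyte development. The letters TTGGC, or GCCAA where the match is on the other strand, are in capitals. Glul and Kcnj10 each have 2 matches, Slc1a2 and the first window of Aldoc have 1 each, and the other windows have 0. The Slc1a2 window, at chr2:102706188-102706487, lies inside the gene, which starts at 102658659 in GENCODE. The promoter at that start was not searched. Among all promoters of that length, 46.7% (15344 of 32851) hold the half-site, so the 4 of 9 windows here are near the common share. The full palindrome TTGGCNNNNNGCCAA is in 0 of the 9 windows and in 12 of the 32851. A match is a description of letters and not of binding. Glul lies on the + strand at chr1:153899679-153899978, Kcnj10 on the + strand at chr1:172340960-172341259 and Gjb6 on the - strand at chr14:57133562-57133861.
Glul: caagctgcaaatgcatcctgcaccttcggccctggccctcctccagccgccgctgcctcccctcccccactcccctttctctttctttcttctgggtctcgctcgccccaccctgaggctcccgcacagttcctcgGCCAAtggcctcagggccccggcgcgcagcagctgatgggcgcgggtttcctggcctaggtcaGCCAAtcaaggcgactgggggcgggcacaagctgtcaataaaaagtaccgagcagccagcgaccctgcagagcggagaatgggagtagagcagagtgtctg
Kcnj10: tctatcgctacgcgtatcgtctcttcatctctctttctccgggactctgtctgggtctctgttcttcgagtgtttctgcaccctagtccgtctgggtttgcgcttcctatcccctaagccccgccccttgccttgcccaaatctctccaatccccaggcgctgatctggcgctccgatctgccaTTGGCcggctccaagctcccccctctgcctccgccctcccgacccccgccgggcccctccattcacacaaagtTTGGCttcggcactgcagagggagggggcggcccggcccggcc
Gjb6: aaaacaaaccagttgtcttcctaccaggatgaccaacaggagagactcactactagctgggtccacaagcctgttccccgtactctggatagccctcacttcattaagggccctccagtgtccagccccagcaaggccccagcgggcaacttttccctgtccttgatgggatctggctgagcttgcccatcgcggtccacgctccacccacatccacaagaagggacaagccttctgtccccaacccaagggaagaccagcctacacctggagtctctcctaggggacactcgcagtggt

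The 9 genes lie on 8 chromosomes in the GENCODE annotation of GRCm38, with Glul and Kcnj10 both on chromosome 1. Gja1 is the gene on chromosome 10, at 56377330 to 56402513 on the + strand, which is 19.8 Mb from the duplicated stretch at 76207222 to 78464975. The duplicated stretch holds 0 of the 9 genes. Slc1a2 is on chromosome 2 (102658659 to 102790784, + strand), Slc1a3 on chromosome 15 (8634124 to 8710764, - strand) and Slc6a11 on chromosome 6 (114131241 to 114249952, + strand). Aqp4 is on chromosome 18 (15389496 to 15410982, - strand) and Aldoc on chromosome 11 (78322968 to 78327781, + strand). As a check of the genotypes, the duplicated genes with a mean of at least 10 CPM in astrocytes had a median Dp(10)2Yey over WT ratio of 1.58, with 20 of 22 higher in Dp(10)2Yey. Their summed level was 1571 and 1566 CPM in WT replicates 1 and 2 and 2582 and 2378 CPM in Dp(10)2Yey replicates 1 and 2, so the astrocytes of the 4 libraries carried the dosage their labels give.

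RNA set free when tissue is dissociated enters all droplets, so low levels outside astrocytes were read against the whole library and against each other. Relative to the whole-library level, microglia carried a median of 3.94% over the 9 genes and 2.49% over the other astrocyte markers. Slc1a2 (5.15%) and Kcnj10 (3.86%) lay near that level in microglia, whereas Slc1a3 was at 27.1% and Glul at 99.03% of the whole-library level. The ratio of Slc1a3 to Slc1a2 was 0.372 ± 0.0574 in astrocytes (SD, n = 4), 2.21 ± 0.587 in microglia and 1.95 ± 0.221 in ependymal cells. Glul in microglia was at 15.3 times Slc1a2, against 0.246 in astrocytes. The part of free RNA in these levels was not tested. Of the 9 genes' UMIs in microglia, 79.8% were from Glul and 11.7% from Slc1a3, and in oligodendrocytes 67.7% were from Glul and 16.0% from Kcnj10.

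Ependymal cells had a profile of their own, with Aqp4 making up 29.2% of their UMIs of the 9 genes, Slc1a3 20.3% and Gja1 15.3%, where astrocytes had 43.0% from Slc1a2, 16.0% from Slc1a3 and 14.97% from Aldoc. Their ratio of Gja1 to Slc1a2 was 1.47, against 0.171 in astrocytes. Oligodendrocyte precursor cells were like astrocytes in their ratio of Slc1a3 to Slc1a2, at 0.469, yet unlike them in Gja1, whose ratio to Slc1a2 was 0.00889. Kcnj10 in the precursor cells was at 155% of the whole-library level while Gja1 was at 1.83%. A finer clustering split the precursor class into 383 cells led by Pdgfra, with 558 CPM of Slc1a2, 270.2 CPM of Slc1a3 and 202 CPM of Kcnj10, and 77 cells with Fyn, Bmp4 and Gpr17 among their leading genes, genes of the step toward oligodendrocytes. In the latter Slc1a2 was at 70.8 CPM and Slc1a3 at 16.0 CPM, and Kcnj10 was at 159.9 CPM. Both transporters were thus lower in the cells with the genes of that step and the channel was near the level of the others, a description of clusters without a test.

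The neuron class gave another pattern. Its ratio of Aldoc to Slc1a2 was 0.343, beside 0.348 in astrocytes, and that of Glul to Slc1a2 was 0.308, beside 0.246, while Slc1a3 to Slc1a2 was lower, at 0.132 ± 0.00455 (SD, n = 4). At a finer clustering, 311 neurons with a median of 32.9% mitochondrial UMIs had a summed level of 7180 CPM of the 9 genes, and 120 neurons with 6.81% mitochondrial UMIs had 609 CPM. Slc1a2 was at 3646 CPM in the former and 427 CPM in the latter, and Aldoc at 1382 and 37.9 CPM. The neurons with few mitochondrial UMIs thus had little of any of the genes except Slc1a2. Of the 304 Slc1a2 UMIs of these 120 neurons, 140 were in 1 cell of WT replicate 2, a called doublet. That cell had 210 UMIs of the 9 genes in all. The part of astrocyte RNA and of RNA quality in the levels of the neuron class was not tested.

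**Figure D3:**
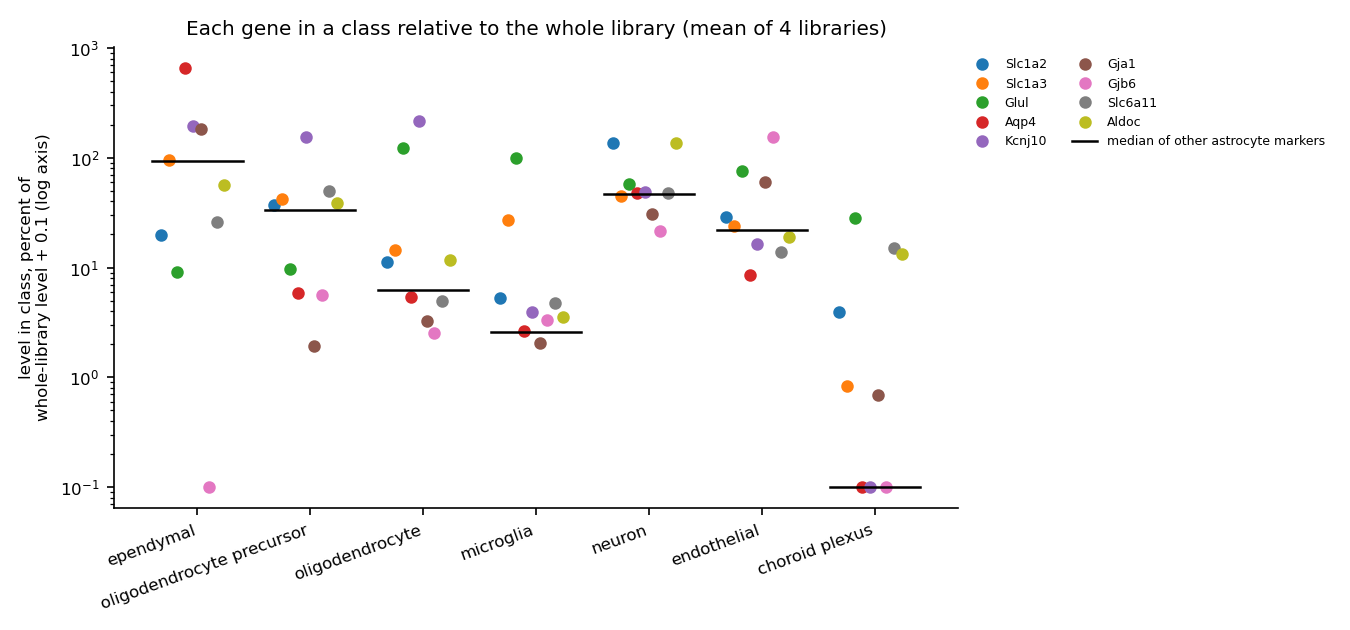
Level of each gene in a class as a percentage of its level in the whole library (log axis, 0.1 added before plotting, mean of the 4 libraries). In microglia Glul (99.03%) and Slc1a3 (27.1%) stand above Slc1a2 (5.15%) and Kcnj10 (3.86%), and in ependymal cells Aqp4 (656%), Kcnj10 (193%) and Gja1 (182%) stand highest.

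Seen cell by cell, UMIs of several of the genes were found in the same astrocyte. To compare classes at 1 depth, the cells were thinned to 1000 UMIs each, which kept 582 astrocytes and left out 305 shallower ones. At this depth 99.5% of astrocytes had a UMI of Slc1a2, 95.2% of Slc1a3 and 91.8% of Aldoc, and in microglia, which are not known to take part in astrocyte transport, the shares were 4.199%, 13.2% and 1.66%. Glul was found in 84.9% of astrocytes, 62.7% of oligodendrocytes and 52.0% of microglia. Gja1 was found in 77.7% of astrocytes, 27.2% of ependymal cells and 0.26% of oligodendrocyte precursor cells, with 0.31% of microglia. Aqp4 was found in 47.9% of astrocytes and in 51.1% of ependymal cells, against 0.36% of microglia. The rarer genes Slc6a11, Gjb6 and Kcnj10 had a UMI in 45.0%, 33.0% and 29.9% of astrocytes, shares that the depth of 1000 UMIs limits, and in 0.16%, 0.05% and 0.52% of microglia.

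The median astrocyte had UMIs from 6 of the 9 genes at this depth, the median ependymal cell and neuron from 2, and the median oligodendrocyte precursor cell, oligodendrocyte and microglial cell from 1. At least 3 of the genes were found in 99.5% of astrocytes, 33.7% of ependymal cells, 39.1% of neurons, 7.44% of oligodendrocyte precursor cells, 5.63% of oligodendrocytes and 0.674% of microglia. At least 5 were found in 86.1% of astrocytes, 8.40% of neurons and 4.35% of ependymal cells. The combination of the genes therefore set astrocytes apart from ependymal cells more clearly than Aqp4 or Kcnj10 alone, but not more clearly than some other single genes. Slc1a2 alone was found in 99.5% of astrocytes and 15.2% of ependymal cells, and Glul alone in 84.9% and 2.17%. The mean number per astrocyte was 6.03 and 5.81 in WT replicates 1 and 2 and 6.12 and 6.16 in Dp(10)2Yey replicates 1 and 2.

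**Figure D4:**
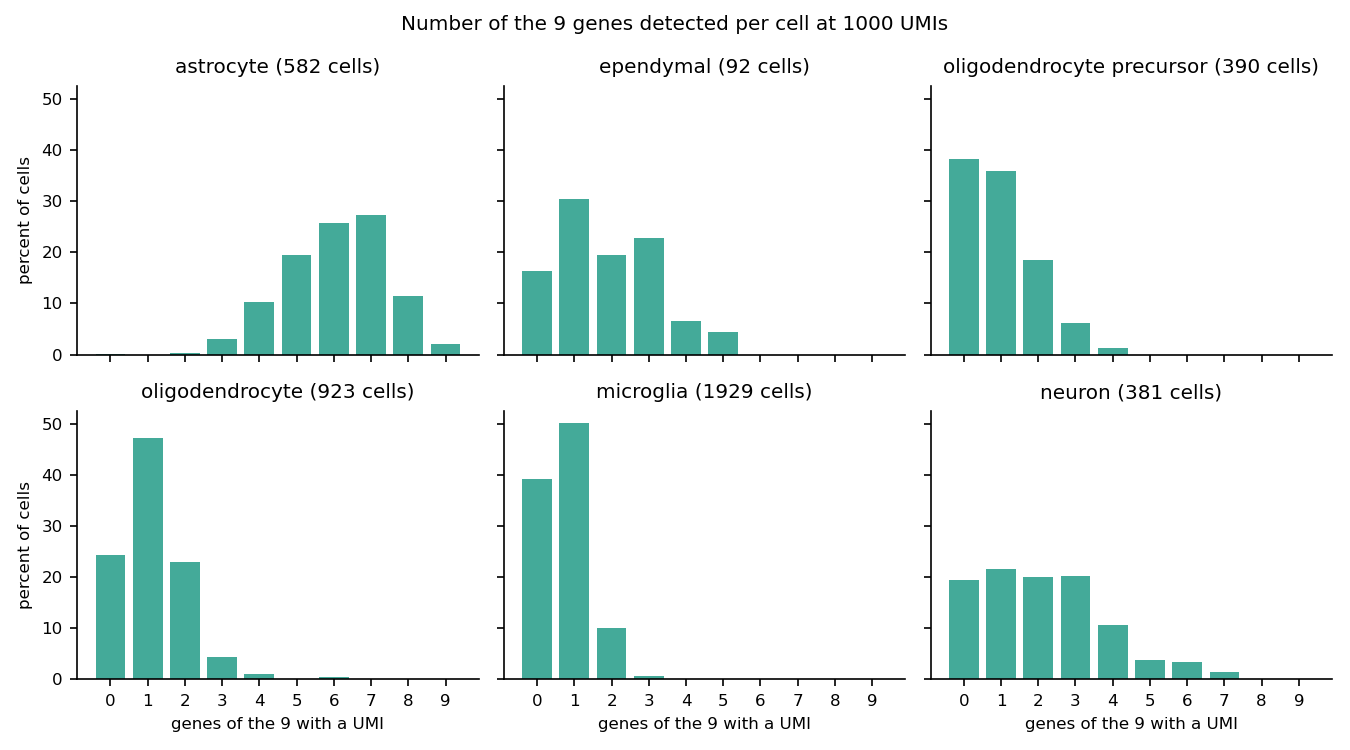
Percentage of cells by the number of the 9 genes with a UMI, at 1000 UMIs per cell, in 6 classes with the cells of the 4 libraries pooled. Astrocytes center on 6 genes, while 33.7% of ependymal cells and 7.44% of oligodendrocyte precursor cells have 3 or more.

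Among the astrocytes themselves, a finer clustering split the class into 550 cells with a median of 2710 UMIs and 337 cells with a median of 769 UMIs, which also had more mitochondrial UMIs (14.97% against 9.78%). Slc1a3 was at 4684 ± 562 CPM (SD, n = 4) in the deeper cells and 2954 ± 798 CPM in the shallower ones, Gja1 at 2183 and 1152 CPM and Slc6a11 at 655 and 355 CPM. Glul and Aldoc went the other way, at 2719 and 3802 CPM and at 3926 and 5038 CPM. Slc1a2 (11869 and 11749 CPM) and Kcnj10 (381 and 388 CPM) were near each other in both. Depth and mitochondrial share moved with these differences, and their part in them was not tested.

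The genes most like the 9 in their pattern over 44 sums of a class in a library were Fgfr3, a growth factor receptor of astrocytes (Pearson r = 0.96 on log2(CPM + 10) with the mean of the 9), then Lgr4 (0.93), Slc27a1 (0.92), Slc4a4 (0.91), Htra1 (0.91), Entpd2 (0.91), Fam20a (0.91) and Agt (0.90). The sums share libraries and 10039 genes were ranked. The same ranking, which includes each of the 9 in the mean, put Aldoc at 5, Slc1a2 at 6, Gja1 at 7 and Slc6a11 at 8, but Kcnj10 at 206 and Glul at 1127. Among pairs of the 9, Aqp4 and Gja1 were the most alike (r = 0.89 over the 44 sums), followed by Slc1a2 and Aldoc (r = 0.89), and Glul and Kcnj10 were the least alike (r = 0.16).

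The genotypes were then compared to see whether the duplication goes with a different level of these genes in astrocytes. In edgeR 0 of the 9 genes passed an adjusted p of 0.01 between Dp(10)2Yey and WT astrocytes and 0 had an unadjusted p under 0.05, and in DESeq2 0 passed. Among all 6524 genes tested in astrocytes, 3 passed, or 0.046%, and 258 (3.95%) had an unadjusted p under 0.05. The fitted log2 fold changes, Dp(10)2Yey over WT, ran from -0.27 to 0.16 with a median of 0.01, beside a median of 0.00 over all genes tested. Aqp4 had the value farthest from 0, at -0.27 ± 0.19 (standard error), with edgeR's unadjusted p = 0.154, and it was the 1 gene of the 9 whose higher Dp(10)2Yey library was below the lower WT library, as was so for 16% of all genes tested. With TMM normalization 0 of the 9 had the opposite order, with the lower Dp(10)2Yey library above the higher WT library, beside 16.1% of all genes. The other values were 0.16 ± 0.21 for Slc1a3, 0.13 ± 0.20 for Gja1, 0.08 ± 0.22 for Slc1a2, 0.03 ± 0.19 for Slc6a11 and 0.01 ± 0.20 for Kcnj10, and -0.01 ± 0.21 for Aldoc, -0.02 ± 0.20 for Glul and -0.02 ± 0.20 for Gjb6. For the 8 genes other than Aqp4 the sign turned when 1 library was left out, so the data give them no direction.

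The 3 genes past the threshold in astrocytes were Gm26870 (log2 fold change 1.45), Lars2 (-1.21) and Cx3cr1 (3.78), chosen here after their values were seen. Their number rested on single libraries, being 7 without WT replicate 1 and 0 when WT replicate 2 or either Dp(10)2Yey replicate was left out. Cx3cr1 is a gene of microglia, and the 58 microglia markers, of which 2 were at 0, summed to 1394 and 463 CPM in astrocytes of WT replicates 1 and 2 and to 1188 and 1265 CPM in those of Dp(10)2Yey replicates 1 and 2, with C1qb the most abundant at 125 CPM. Their part in the Cx3cr1 value was not tested.

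**Figure D5:**
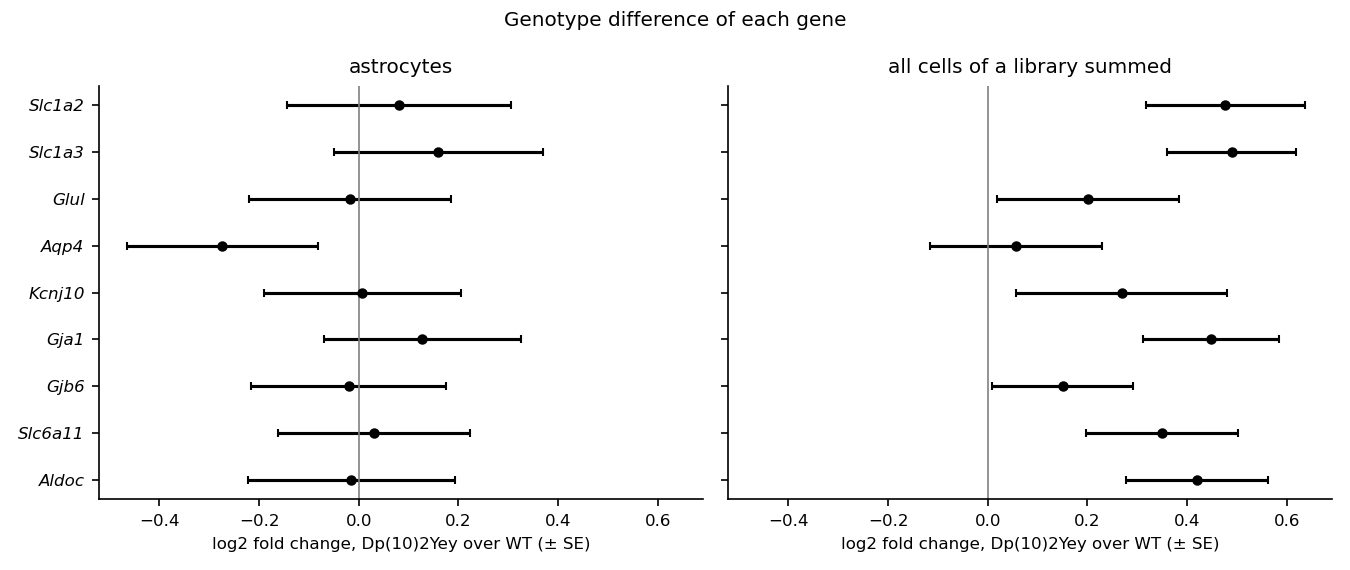
Fitted log2 fold change of each gene, Dp(10)2Yey over WT, with its standard error, in astrocytes and in all cells of a library summed (n = 2 libraries per genotype). In astrocytes the values run from -0.27 (Aqp4) to 0.16 (Slc1a3), and with all cells summed they run from 0.06 (Aqp4) to 0.49 (Slc1a3).

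Whether the genotype difference itself depended on the class was tested with an interaction term in edgeR, with the library as a block. Against ependymal cells 0 of the 9 genes passed an adjusted p of 0.01 and 0 had an unadjusted p under 0.05, beside 1 (0.0148%) and 253 (3.74%) of 6759 genes, and Gjb6 has no information here since ependymal cells had none of it. Against oligodendrocyte precursor cells 0 of the 9 passed and 2 had an unadjusted p under 0.05, Glul (-0.68 ± 0.28, astrocytes minus precursor cells on the log2 scale) and Slc6a11 (0.86 ± 0.43), beside 1 (0.0112%) and 355 (3.99%) of 8893 genes. This test was run in edgeR alone.

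In the other 10 classes with enough cells the 9 genes gave 46 tests, of which 0 passed by edgeR or by DESeq2 and 13 had an unadjusted p under 0.05, beside 11 (0.0247%) and 1452 (3.26%) of 44561 tests over all genes. In 20 of the 46 tests the lower Dp(10)2Yey library exceeded the higher WT library, beside 15.2% of the tests over all genes. In 4 of the 46 both Dp(10)2Yey libraries were lower than both WT libraries, 1 each in choroid plexus cells, endothelial cells, microglia and oligodendrocyte precursor cells. Over all genes tested in these classes, in this order, that was so for 118 of 770, 734 of 4718, 1391 of 9097 and 1253 of 8084. The neurons gave 7 of the 20, from 8 of the genes tested, beside 860 of all 5044 genes tested in neurons. Slc1a2 in oligodendrocytes came closest to the threshold, with 62.2 and 96.3 CPM in WT replicates 1 and 2 and 291 and 169 CPM in Dp(10)2Yey replicates 1 and 2. In the latter library 82 of the 292 UMIs were in 1 cell, a called doublet, without which the level was 122 CPM. In Dp(10)2Yey replicate 1 the oligodendrocyte with the most Slc1a2 UMIs had 54. The groups did not overlap, and the log2 fold change was 1.42 ± 0.24 (standard error) with an adjusted p of 0.193 in edgeR. In edgeR 0 of the 9 genes passed in oligodendrocytes with RLE size factors, thinned sums or a threshold of 0.05. The number was also 0 with called doublets or cells of over 20% mitochondrial UMIs removed, and with the other clusterings. With the replicate number as a block, Slc1a2 in oligodendrocytes passed the threshold (1.28), beside 0.164% of the tests over all genes and 0.279% of those in oligodendrocytes. It passed the threshold with no filter on low counts (1.44) and when any 1 library was left out, with 1.23 and 1.87 without WT replicates 1 and 2 and 0.998 and 1.75 without Dp(10)2Yey replicates 1 and 2. Over all genes in the 10 classes these fits called 0.116% of the tests with no filter, 0.253% and 0.155% without WT replicates 1 and 2 and 0.339% and 0.536% without Dp(10)2Yey replicates 1 and 2. In the same oligodendrocytes the 62 astrocyte markers, of which 1 was at 0, summed to 1010 and 1042 CPM in WT and to 1931 and 1376 CPM in Dp(10)2Yey. The most abundant of them was S100b (365 CPM), which lies in the duplicated stretch. Without it the others summed to 718 and 820.2 CPM in WT and to 1318 and 1043 CPM in Dp(10)2Yey, the libraries in the same order as for Slc1a2, with Plpp3 the most abundant at 145 CPM. The part of astrocyte RNA in the Slc1a2 value was not tested.

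Of the neuron genes, Aqp4 (1.67 ± 0.50) and Aldoc (1.40 ± 0.44) had the largest log2 fold changes. In neurons the astrocyte markers summed to 5191 and 5769.9 CPM in WT and to 8833 and 8367 CPM in Dp(10)2Yey, with 0 of the 62 at 0 and Mt3 the most abundant at 2660.4 CPM, and without S100b to 5016 and 5556 CPM in WT and to 8191 and 7928 CPM in Dp(10)2Yey. The make-up of the class also differed between libraries. The cluster rich in mitochondrial UMIs, which had the higher summed level of the 9 genes, held 32 of 48 and 92 of 142 neurons in WT replicates 1 and 2 and 131 of 142 and 56 of 100 neurons in Dp(10)2Yey replicates 1 and 2. The part of the markers and of the make-up in these values was not tested. Without Dp(10)2Yey replicate 2, which leaves the Dp(10)2Yey library with 131 of 142 neurons in that cluster, the number past the threshold in the 10 classes was 7, with Slc1a2, Slc1a3, Glul and Aldoc in neurons and Slc1a2, Slc1a3 and Aldoc in oligodendrocytes. In the same fits 160 of 5219 genes passed in neurons (3.07%) and 36 of 8627 in oligodendrocytes (0.417%). Without WT replicate 1 the number was 3, with Slc1a3 (1.63) and Gjb6 (-1.78) in endothelial cells besides Slc1a2 in oligodendrocytes, and 68 of 6796 genes passed in endothelial cells. Of the endothelial UMIs of Slc1a3 in Dp(10)2Yey replicate 2, 54 of 89 were in 1 cell, without which the level was 99.7 CPM in place of 242 CPM, and the Gjb6 of the class was mostly in the cells led by Mgp, of which Dp(10)2Yey replicate 1 had 0.

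With all cells of a library summed, where more astrocytes and more RNA per astrocyte cannot be told apart, the 9 genes made up 3351 and 3219 CPM in WT replicates 1 and 2 and 4550.3 and 3925 CPM in Dp(10)2Yey replicates 1 and 2. Both Dp(10)2Yey libraries were above both WT libraries. By gene, Slc1a2 was at 1096 and 1079 CPM in WT and 1661 and 1349.9 CPM in Dp(10)2Yey, Slc1a3 at 416 and 454 CPM and 589 and 629.9 CPM, and Gja1 at 175 and 172 CPM and 211 and 260.02 CPM. The fitted log2 fold changes were above 0 for all 9, beside 7077 of the 13874 genes tested. Those of the 9 ran from 0.06 ± 0.17 for Aqp4 to 0.49 ± 0.13 for Slc1a3 with a median of 0.35, beside 0.004 over all genes. However, that of Aqp4 was -0.06 with thinned sums, and those of Aqp4, Glul and Kcnj10 turned when 1 library was left out. None passed in edgeR or DESeq2, 5 had an unadjusted p under 0.05, and of 13874 genes 0 passed (0%) and 356 (2.57%) had an unadjusted p under 0.05. For 6 of the 9 both Dp(10)2Yey libraries were higher, beside 13.8% of all genes.

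The shares of astrocytes ran alongside. Astrocytes were 14.4% and 12.1% of the cells in WT replicates 1 and 2 and 14.7% and 15.5% in Dp(10)2Yey replicates 1 and 2, and they gave 8.37% and 7.25% of the UMIs in WT and 10.1% and 9.34% in Dp(10)2Yey. The difference in the share of cells was 1.87 percentage points, with a two-sided exact permutation p of 0.33, the smallest that 2 libraries against 2 allow. It was 3.01 points without WT replicate 1, 0.725 points without WT replicate 2 and 3.28 points with cells of over 20% mitochondrial UMIs removed. Dissociation sets how many astrocytes are recovered, so the share describes the libraries and not the tissue.

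Other genes of astrocyte transport and metabolism were compared between genotypes in the same way. Of a list of 47, 38 were tested in astrocytes and 0 passed in edgeR or DESeq2, beside 0.046% of all genes tested in edgeR. In edgeR 2 of the 38 had an unadjusted p under 0.05, beside 3.95% of all genes tested. The log2 fold changes of the 38 ran from -1.18 to 0.13 with a median of -0.05. For 15 of the 38 the value was above 0, beside 50.1% of all genes tested. Both Dp(10)2Yey libraries were lower for 3 of the 38 and higher for 0, beside 16% and 16.1% of all genes. A difference between this list and the 9 genes was not tested. Among the abundant ones were Slc4a4 (1731 ± 182 CPM, SD, n = 4), a bicarbonate transporter, Atp1b2 (1612 ± 72.5 CPM), a subunit of the sodium pump, Ldhb (889.5 ± 10.4 CPM), a lactate dehydrogenase, and Mlc1 (749 ± 89.1 CPM), a membrane protein of the endfeet. The log2 fold changes of these 4 lay between -0.09 (Mlc1) and 0.08 (Slc4a4).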

How the data were processed

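The authors deposited raw UMI counts per gene and cell barcode from Cell Ranger 3.0.2 on mm10, without normalization. Genes found in at least 4 cells were kept, as were cells with 200 or more genes, and 46 barcodes with over 5% globin UMIs were removed as red blood cells, a limit chosen after the data were seen. Clustering used Seurat 5.3.0 in R 4.3.3 (canonical correlation analysis, 2000 variable genes per library without the 9 genes, 50 dimensions, resolution 0.2). A class was named when at least 4 of its 10 leading genes were markers of it, with at least 3 more than of any other class. Scrublet in scanpy 1.11.5 called 51 doublets, which were kept. The UMIs of a class were summed per library and compared by genotype with edgeR 4.0.16 (TMM, filterByExpr, quasi-likelihood test, no block, Benjamini-Hochberg adjustment over all genes of the class, threshold 0.01), with DESeq2 1.42.0, RLE size factors, no filter, a replicate block, a threshold of 0.05, thinned sums, other cell filters and clusterings, and each library left out as alternatives. Besides markers and leading genes of clusters, the genes named are the 9, the 8 most alike in pattern and 4 of the 6 most abundant of the pathway list (the other 2 are not reported here), and genes past the threshold in astrocytes are given by number, with names added after their values were seen. The members and lists were chosen with earlier results of these data known. Python 3.11.15 was used for levels.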

Additional observations from a re-analysis of the deposited data

How the results depend on the processing

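The share of the UMIs of the 9 genes in astrocytes, the folds of their summed level over ependymal and oligodendrocyte precursor cells and the 0 of 9 genes past the threshold in astrocytes held under the alternatives run. The fold over microglia was 27.2 at a resolution of 0.5 and 18.2 with endothelial cells in place of microglia. At a resolution of 0.5 the microglia class was smaller, since 1078 of its cells fell in an unnamed cluster led by Klf4 and Atf3. Their summed level was 1293 CPM, against 951 and 1046 CPM in the other clusters of microglia.

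The number of all genes past the threshold in astrocytes, 3, was 7 with no filter on low counts, 0 with thinned sums, 1 with called doublets removed, 9 with the 9 genes kept in the clustering, and 0 to 7 with 1 library left out. The 0 of the 9 genes in other classes became 1 with no filter (0.116% of the tests over all genes passed) and 1 to 7 with 1 library left out (0.155% to 0.536%). Preparation ran on 2 days with a mouse of each genotype on each, but the labels do not say which replicate numbers share a day. With the replicate number as a block, 4 genes passed in astrocytes and 0 of the 9, 1 of the 9 passed in other classes (Slc1a2 in oligodendrocytes, 1.28, beside 0.164% of the tests over all genes), and Kcnj10 in astrocytes was at -0.018. These causes were not tested.

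Fold changes in astrocytes (log2) that turned were Glul at 0.027, Gjb6 at 0.023, Aldoc at 0.028 and Ldhb at 0.039 with no filter, Gjb6 at 0.0080 with thinned sums, Kcnj10 at -0.0010 with doublets removed, and Kcnj10 at -0.0053 with the 9 genes kept in the clustering. With all cells summed, Aqp4 was at -0.062 with thinned sums. With 1 library left out, the lone library of a genotype is assumed to vary like the others. Then the values in astrocytes ran from -0.0086 to 0.18 for Slc1a2, from -0.022 to 0.40 for Slc1a3, from -0.17 to 0.14 for Glul, from -0.22 to 0.23 for Kcnj10, from -0.014 to 0.26 for Gja1, from -0.12 to 0.088 for Gjb6, from -0.11 to 0.16 for Slc6a11 and from -0.11 to 0.084 for Aldoc. They ran from -0.050 to 0.23 for Slc4a4, from -0.0099 to 0.095 for Atp1b2, from -0.036 to 0.043 for Ldhb and from -0.26 to 0.17 for Mlc1. With all cells summed they ran from -0.065 to 0.42 for Glul, from -0.15 to 0.27 for Aqp4 and from -0.091 to 0.56 for Kcnj10. None of these passed the threshold in edgeR, and their causes were not tested.

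With 2 libraries per genotype the standard errors in astrocytes were near 0.20, and how small a fold change could be detected was not tested.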

Other observations

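In the unnamed cluster of 51 cells led by Reln and Ndnf, 1 cell of Dp(10)2Yey replicate 2 held all 72 Aqp4 UMIs of the cluster. The same cell held 380 of the 435 UMIs of the 9 genes that the 17 cells of the cluster had in that library, 156 of them from Slc1a2 and 60 from Aldoc. The summed level of the 9 genes in this cluster was 4294 CPM in that library, or 733 CPM without this cell, against 218 and 412 CPM in WT replicates 1 and 2 and 565 CPM in Dp(10)2Yey replicate 1.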
